A study of Gallus gallus with 8 samples.

Results

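The genes described here were abundant and steady in every library of cultured chicken neural crest, with or without the secreted protein DAN. A gene was taken when its RPKM (reads per kilobase of gene, scaled to sequencing depth) was at least 100 in all 8 libraries and its highest value was at most 1.6 times its lowest. The rule selected 421 of the 17108 genes in the tables, 2.46% of them and 38.9% of the 1083 genes that met the floor of 100 RPKM alone. The members were thus selected on the deposited RPKM of every library, so the levels, ratios and group differences of these genes are descriptions. A fit over all genes is used for the background, and the calls it gives among the 421 genes are likewise descriptions that support nothing about them. All 421 genes also passed the filter on low counts used in the fit over all genes.

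The cells had crawled out of Gallus gallus cranial neural tubes, cut at the level of rhombomeres 3 to 5 from leghorn embryos at Hamburger and Hamilton stage 8 and grown overnight on fibronectin and poly-D-lysine, per the labels' protocols. The 3 groups were untreated cultures (2 libraries, replicates 2 and 3), cultures with 1 µg/ml DAN (NBL1) protein in the medium (3 libraries) and cultures with 10 µg/ml DAN (3 libraries). No transgene or deletion is named for any group, and each sample held 200 to 1000 adherent cells, per the labels. By its title, the study concerns the part of DAN in collective crest migration and the restraint of invasion.

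DAN is an extracellular antagonist of bone morphogenetic proteins, signals that act on crest cells as they form and migrate. Only part of a cell's RNA responds to such a signal. In animal cells in general, much of the abundant mRNA encodes the machinery of protein synthesis, energy metabolism and the cytoskeleton. Abundant genes that stay steady between conditions serve as internal standards in PCR, and scaling methods such as TMM (trimmed mean of M values) use the bulk of genes in the same way. The tables give Ensembl IDs without gene names, so no function or sequence is given for any gene below, and the markers of crest, neural tube, ectoderm or other cells are not analysed here. In such bulk samples, fewer cells of a type and less RNA per cell cannot be told apart.

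The untreated libraries stood apart from each other. Library totals ran from 44338765 to 199084828 counts. The chi-square per degree of freedom over genes was 341 between the untreated libraries and 67.9 to 148 between libraries of the same dose. This value grows with the counts, and the totals differed, so it compares the pairs only roughly. Each library was counted as 1 replicate. The number of genes selected and the median fold changes against untreated cells are given below with and without each untreated library. The group means with DAN are also set against each untreated library.

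The steadiest gene was ENSGALG00000008713. Its RPKM was 492 and 519 in untreated cells, 472, 506 and 484 at 1 µg/ml, and 505, 474 and 503 at 10 µg/ml. The groups overlapped and no dose lay apart. Its highest value was 1.10 times its lowest, and its standard deviation over the 8 libraries was 3.39% of the mean. The group means were 505 ± 19.1 RPKM untreated (SD, n = 2), 487 ± 17.3 RPKM at 1 µg/ml (SD, n = 3) and 494 ± 17.2 RPKM at 10 µg/ml (SD, n = 3).

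The second steadiest gene, ENSGALG00000009325, had 271 and 273 RPKM in untreated cells, 280, 297 and 305 RPKM at 1 µg/ml, and 272, 276 and 276 RPKM at 10 µg/ml. All 3 libraries at 1 µg/ml lay above the others, by a small margin, and its ratio of highest to lowest was 1.13. Only 17 of the 421 genes had a ratio of 1.2 or less. The median ratio was 1.44, with quartiles of 1.34 and 1.52.

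The highest of the steady genes averaged 4121 and 4016 RPKM. ENSGALG00000002197 had 3638 and 3883 RPKM in untreated cells, 3803, 3845 and 4302 RPKM at 1 µg/ml, and 4895, 3905 and 4696 RPKM at 10 µg/ml. The 10 µg/ml libraries lay above both untreated ones, the nearest at 3905 against 3883 RPKM, and overlapped with those at 1 µg/ml. Libraries at 10 µg/ml lay above both untreated ones for 28.5% of the 421 genes and 24.2% of all genes tested. In edgeR the adjusted p of this gene at 10 µg/ml against untreated was 0.263. ENSGALG00000002569 had 3009 and 4356 RPKM in untreated cells, 3588, 3722 and 4143 RPKM at 1 µg/ml, and 4688, 4283 and 4339 RPKM at 10 µg/ml. Its untreated libraries enclosed all 3 values at 1 µg/ml and 2 of the 3 at 10 µg/ml. Over all 421 genes the mean RPKM ran from 115 to 4121 with a median of 295, and 39 genes averaged at least 1000 RPKM.

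**Figure D1:**
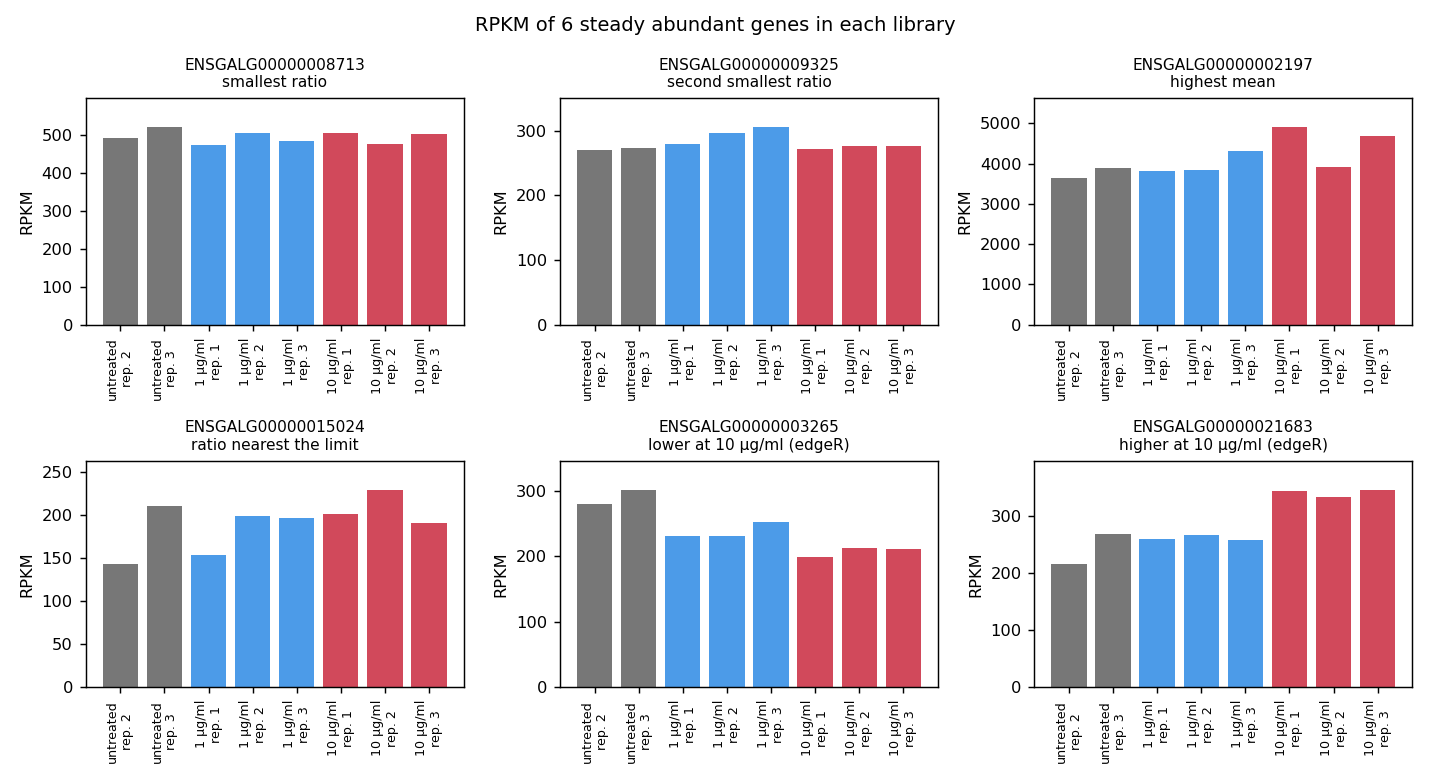
RPKM (vertical axes, from 0) of 6 of the steady genes in each library, with untreated libraries in grey, 1 µg/ml DAN in blue and 10 µg/ml DAN in red. ENSGALG00000008713 stayed between 472 and 519 RPKM, while ENSGALG00000003265 was lower and ENSGALG00000021683 higher at 10 µg/ml than in both untreated libraries, inside the allowed ratio of 1.6.

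The limits of the rule cut through a continuous range. Just inside the ratio limit, ENSGALG00000015024 had a ratio of 1.599, with 143 and 211 RPKM in untreated cells, 153 to 199 RPKM at 1 µg/ml and 191 to 229 RPKM at 10 µg/ml. Just outside it, ENSGALG00000009565 (ratio 1.601) had 922 and 1356 RPKM in untreated cells, 1200 to 1439 RPKM at 1 µg/ml and 1409 to 1476 RPKM at 10 µg/ml, and ENSGALG00000012259 had a ratio of 1.602. In each of these genes untreated replicate 2 held the lowest value. At the floor, the lowest values inside were 100.3 RPKM for both ENSGALG00000004837 and ENSGALG00000017368. The nearest steady genes outside, ENSGALG00000013018 and ENSGALG00000000055, had lowest values of 99.7 and 99.4 RPKM.

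A steady level was most frequent at intermediate to high abundance and less frequent among the most abundant genes. Of genes whose lowest RPKM was between 1 and 2, 108 of 1341 (8.05%) kept within a ratio of 1.6. The share was 20.3% between 5 and 10 RPKM, 33.0% between 20 and 50 RPKM, and 40.2% between 50 and 100 RPKM. Above the floor it was 40.6% between 100 and 200 RPKM (170 of 419 genes), 41.3% between 200 and 500 RPKM (164 of 397), 34.8% between 500 and 1000 RPKM (55 of 158) and 29.4% at 1000 RPKM or more (32 of 109). The ratio limit alone thus also held for 1613 genes that missed the floor of 100 RPKM.

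**Figure D2:**
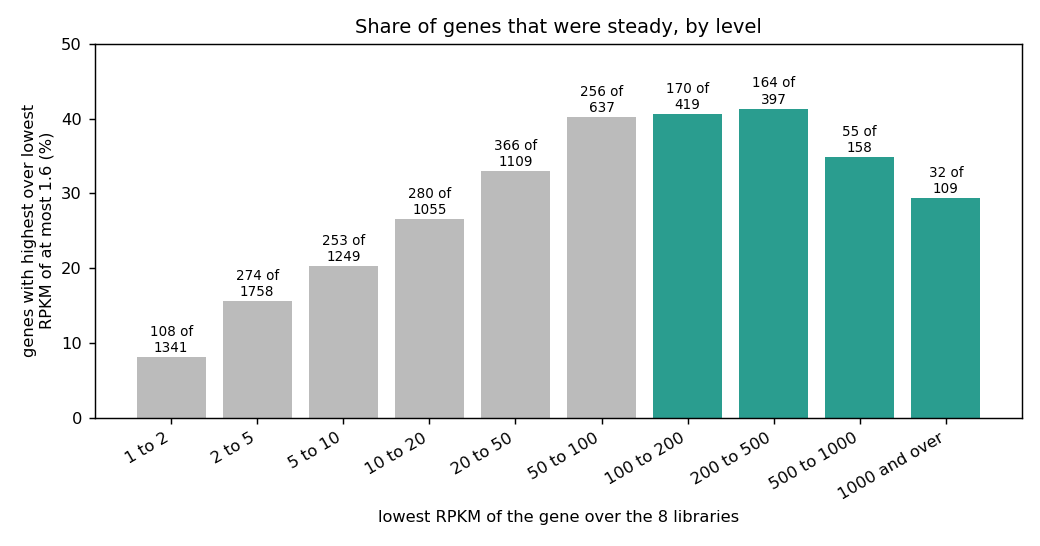
Share of genes with a ratio of highest to lowest RPKM of at most 1.6 (vertical axis, percent) by the lowest RPKM of the gene (horizontal axis), with the number of genes above each bar; green bars are genes at or above 100 RPKM. The share grows from 8.05% at 1 to 2 RPKM to 41.3% at 200 to 500 RPKM and is 29.4% at 1000 RPKM and over.

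Counting error was small beside the spread of these genes. Each had between 449 and 189472 counts in its poorest library, with a median of 15737, which allows a counting error of 0.797% at the median gene and 4.72% at the poorest. The standard deviation over the 8 libraries was 3.39 to 18.1% of the mean, with a median of 12.1%. The biological coefficient of variation that edgeR estimated within groups had a median of 14.3% for the steady genes, 17.9% for the other 662 abundant genes and 27.4% for all genes tested. Each gene's estimate also draws on the other genes, and the rule itself selects a low spread. Nothing is thus read from the lower value of the steady genes. Reads were amplified without molecular identifiers, so these errors cover counting only.

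The steady genes had a median length of 1216 bases, against 983 bases for the other abundant genes. When the 1083 abundant genes were divided by length into 5 bins of equal size, 46 of 217 (21.2%) were steady in the shortest bin (36 to 586 bases), and 42.1%, 42.4%, 41.7% and 47.0% in the others from shorter to longer. Length enters RPKM and so the floor of the rule, but it cancels in the ratio. There were 16 steady genes shorter than 200 bases, and 75 among the other abundant genes.

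The libraries did not contribute evenly to the remaining spread. Untreated replicate 2 held the lowest of the 8 values for 193 of the 421 genes (45.8%), and untreated replicate 3 held the highest for 141 (33.5%). Replicate 1 at 10 µg/ml held the highest for 126 genes. Of the 421 genes, 351 were higher in untreated replicate 3 than in untreated replicate 2. Relative to each gene's mean, the median log2 deviation was -0.15 and 0.11 in the untreated libraries, -0.08, -0.07 and 0.00 at 1 µg/ml, and 0.11, 0.03 and 0.05 at 10 µg/ml. The other abundant genes deviated the same way and further in the untreated libraries, with medians of -0.41 and 0.25.

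**Figure D3:**
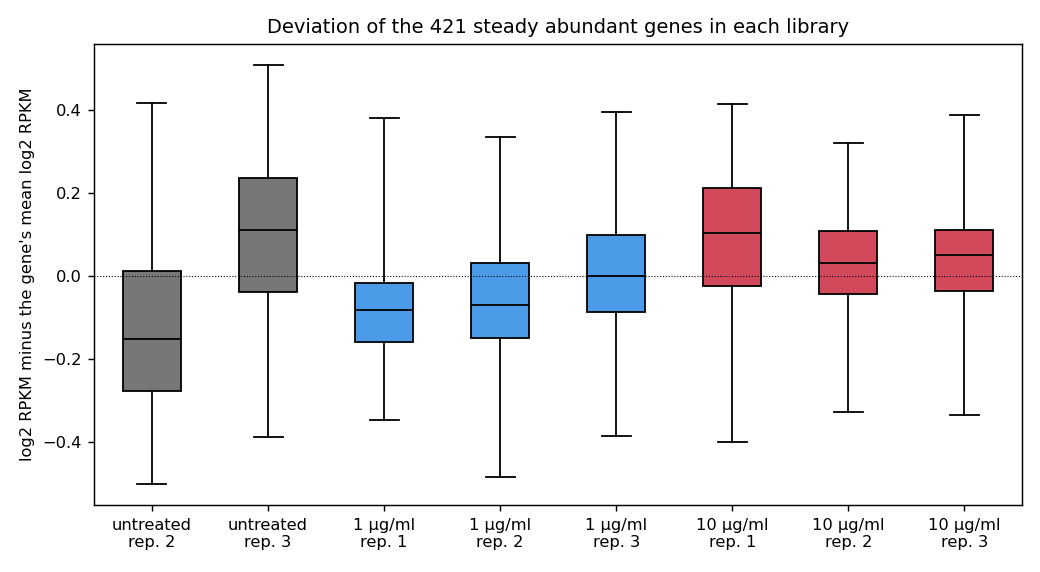
Deviation of log2 RPKM from the gene's own mean over 8 libraries (vertical axis) for the 421 steady genes in each library; boxes span the quartiles with the median as a line and whiskers reach the extremes. Untreated replicate 2 has the lowest median (-0.15) and untreated replicate 3 the highest (0.11).

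The trend of this deviation with gene length differed between libraries. The median log2 deviation in the shortest, middle and longest of 3 equal length bins of the steady genes (medians of 708, 1220 and 1903 bases) was -0.11, -0.13 and -0.19 in untreated replicate 2, and 0.20, 0.13 and 0.05 in untreated replicate 3. At 1 µg/ml it was -0.10, -0.09 and -0.07 in replicate 1, -0.13, -0.07 and 0.01 in replicate 2, and -0.08, 0.01 and 0.08 in replicate 3. At 10 µg/ml it was 0.14, 0.10 and 0.09 in replicate 1, 0.02, 0.04 and 0.03 in replicate 2, and 0.07, 0.04 and 0.04 in replicate 3. The values were thus lower in longer genes in both untreated libraries and in replicate 1 at 10 µg/ml. They were higher in longer genes in replicates 2 and 3 at 1 µg/ml. In replicate 1 at 1 µg/ml and in replicates 2 and 3 at 10 µg/ml the bins lay close together. The part of length in the spread was not tested.

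Taken in pairs, the libraries that received DAN were closer to each other than the 2 untreated ones were. The median absolute log2 ratio of the steady genes was 0.256 in the untreated pair. It was 0.087 to 0.127 in pairs of the same dose and 0.121 to 0.222 in pairs across the doses. Within a group, the highest value was a median of 1.19 times the lowest for the 2 untreated libraries, 1.13 times for the 3 at 1 µg/ml and 1.12 times for the 3 at 10 µg/ml. Over the 6 libraries with DAN the median was 1.27. A range grows with the number of libraries, so these medians over 2, 3 and 6 libraries are not alike. Among the other abundant genes the untreated pair differed by a median of 1.54 times, and 294 of the 662 genes (44.4%) exceeded 1.6 in the untreated pair alone. Over the 6 libraries with DAN, 500 of these 662 genes (75.5%) kept within 1.6. Leaving out untreated replicate 2 would select 785 genes instead of 421, and leaving out untreated replicate 3 would select 598. Dropping any library with DAN would select 425 to 496 genes.

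The summed share of reads taken by the steady genes varied little, as the selection largely requires. They held 22.8% and 21.2% of all counts in untreated cells, 21.2%, 21.1% and 21.6% at 1 µg/ml, and 21.5%, 21.5% and 21.8% at 10 µg/ml. The other abundant genes held 38.6% and 47.6% in untreated cells, 41.3%, 42.0% and 41.8% at 1 µg/ml, and 44.0%, 43.7% and 43.7% at 10 µg/ml. Untreated replicate 2 was thus the highest library for the steady genes' share of reads, although it was most often the lowest by RPKM. The RPKM of the authors scale with TMM-adjusted totals, and the share of reads with plain totals. The rule limits the range of each steady gene's RPKM over these same libraries, which largely sets a near-constant sum. The other abundant genes are those that exceeded this limit, so nothing is read from the wider range of their share.

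Which library was extreme turned with the scaling. With values scaled to library size only, untreated replicate 2 held the highest value for 139 of the 421 genes and the lowest for 36, and untreated replicate 3 held the highest for 55 and the lowest for 111. The median ratio of these genes was then 1.35, and 373 of them kept within 1.6. When each library was divided by its median over the 1083 abundant genes, a scaling chosen after seeing the data, untreated replicate 2 was again highest most often (142 genes), and 361 of the 421 kept within 1.6. Selecting anew gave 637 genes under either scaling, of which 369 and 357 were among the 421. With DESeq2 size factors, which scale much as TMM does, 441 genes were selected and 416 of them shared.

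**Figure D4:**
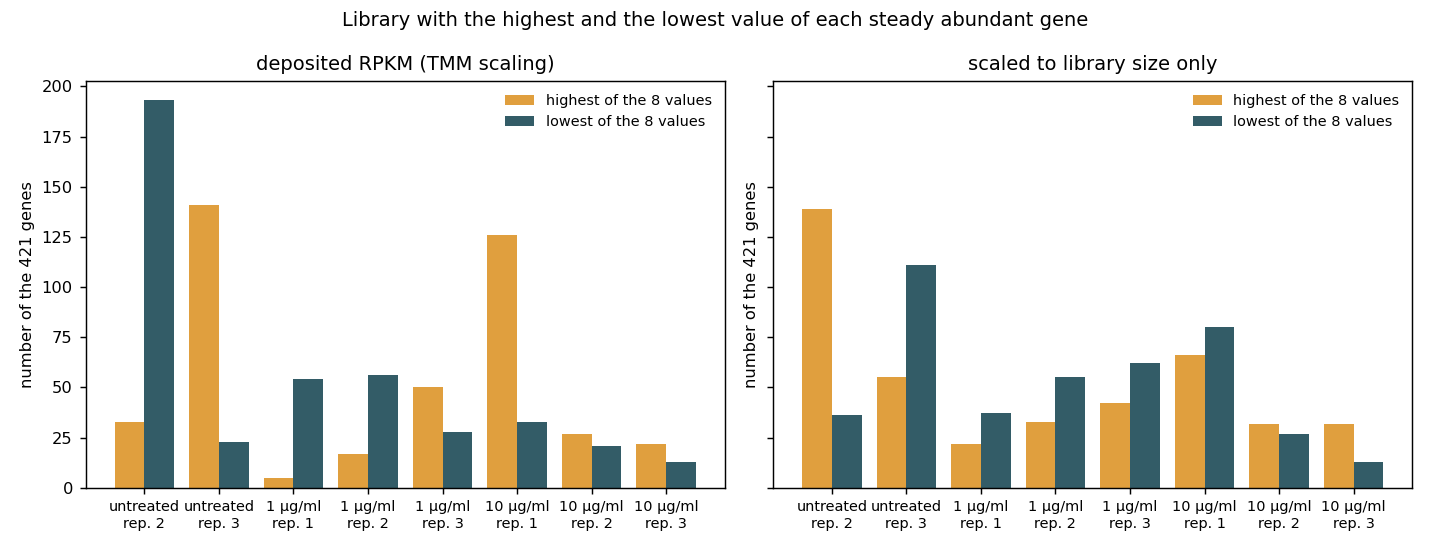
Number of the 421 steady genes (vertical axis) whose highest (orange) or lowest (dark) of 8 values falls in each library, for the deposited RPKM (left) and for the same values scaled to library size only (right). Untreated replicate 2 holds 193 lowest values on the left and 139 highest values on the right.

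The comparison of 10 µg/ml with untreated cells left little room for change by the rule, since no group ratio could exceed 1.6 (0.68 on the log2 scale). The ratio of mean RPKM ran from 0.700 to 1.41 with a median of 1.06, and the edgeR log2 fold change had a median of 0.07 for the steady genes, 0.17 for the other abundant genes and -0.02 for all genes tested. Of the 421 genes, 4 were called (1 higher, 3 lower) at an adjusted p under 0.05 in edgeR's quasi-likelihood test, where 16.4% of all genes tested (7.23% higher, 9.13% lower) and 120 of the 662 other abundant genes were called. The rule used this contrast, so nothing is read from the low count or from the calls.

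ENSGALG00000003265, called with the smallest p, had 199, 213 and 211 RPKM at 10 µg/ml, against 280 and 301 RPKM in untreated cells. All 3 libraries at 10 µg/ml lay below both untreated ones, and the libraries at 1 µg/ml lay between, at 231, 232 and 252 RPKM. The log2 fold change was -0.49. Libraries at 10 µg/ml lay below both untreated ones for 15.4% of the 421 genes and 23.3% of all genes tested. ENSGALG00000003053 had 422, 480 and 470 RPKM at 10 µg/ml, against 638 and 669 RPKM in untreated cells, a log2 fold change of -0.52. It too was lower in 3 of 3 libraries at 10 µg/ml. Its libraries at 1 µg/ml, with 474, 463 and 534 RPKM, overlapped with those at 10 µg/ml and lay below both untreated ones. In edgeR both calls were lost with only the groups compared (adjusted p 0.0812 and 0.077). They were also lost when any 1 library at 10 µg/ml, or replicate 2 at 1 µg/ml, was left out. The call of ENSGALG00000003053 was lost without replicate 1 at 1 µg/ml too (edgeR adjusted p 0.0508).

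ENSGALG00000021683, the steady gene called higher, had 343, 333 and 345 RPKM at 10 µg/ml, against 216 and 269 RPKM in untreated cells. Its libraries at 1 µg/ml, with 259, 267 and 257 RPKM, lay within the untreated range. The log2 fold change was 0.48, and its ratio of highest to lowest, 1.599, was the second nearest to the limit. Without untreated replicate 2 its log2 fold change was 0.33. In edgeR the call was lost with only the groups compared (adjusted p 0.126) and with no filter on low counts (adjusted p 0.0504). It was also lost when any 1 library with DAN was left out (adjusted p 0.0673 to 0.119). With a replicate block 0 of the 421 genes were called in edgeR, where 8.09% of all genes tested were.

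The untreated library left in the fit decided how many steady genes were called, and in which direction. Without untreated replicate 3, 108 of the 421 were called at 10 µg/ml (95 higher, 13 lower), where 34.5% of all genes tested were. Without untreated replicate 2, 19 were called (2 higher, 17 lower), where 12.4% of all genes tested were. Over all genes tested, calls were also more often higher without untreated replicate 3 and more often lower without untreated replicate 2. The split there was less one-sided than among the steady genes. In both fits the spread came from the libraries with DAN alone, so nothing is read from these counts or directions. The median log2 fold change of the steady genes at 10 µg/ml was 0.22 without untreated replicate 3, where that of all genes tested was 0.05. Without untreated replicate 2 the medians were -0.06 for the steady genes and 0.01 for all genes tested. Leaving out replicate 1, 2 or 3 at 10 µg/ml gave 0 calls among the 421 each time, where 3.62%, 10.7% and 6.96% of all genes tested were called. Leaving out replicate 1, 2 or 3 at 1 µg/ml gave 1, 0 and 2, where 12.4%, 11.8% and 12.1% of all genes tested were called. DESeq2 called 20 (9 higher, 11 lower), where it called 25.5% of the genes it tested (11.9% higher, 13.6% lower). With library size only, edgeR called 25 (3 higher, 22 lower), where 16.6% of all genes tested were called (939 genes higher, 1398 lower). At 10 µg/ml against untreated, the median over all genes of the log2 fold change was -0.13 with library size only and -0.02 with TMM, and that of the steady genes -0.02 and 0.07.

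At 1 µg/ml against untreated cells, 0 of the 421 steady genes were called by edgeR, where 2.81% of all genes tested were. Before adjustment 51 of the 421 had a p under 0.05 in edgeR (13 higher, 38 lower), where 26% of all genes tested had (12.9% higher, 13.1% lower). DESeq2 called 12 of the 421 (1 higher, 11 lower), where it called 15.7% of the genes it tested (7.55% higher, 8.16% lower). The median log2 fold change was -0.07 for the steady genes, -0.07 for the other abundant genes and -0.03 for all genes. Without untreated replicate 2 edgeR called 36 steady genes, all lower at 1 µg/ml, against 5.67% of all genes tested. Without untreated replicate 3 it called 27 (20 higher, 7 lower), against 23.9%. Among all genes tested, calls were likewise more often lower without untreated replicate 2 and more often higher without untreated replicate 3, but less one-sidedly. Each of these fits had 1 untreated library, so nothing is read from the counts or directions. The median log2 fold change of the steady genes at 1 µg/ml was -0.17 without untreated replicate 2, where that of all genes tested was 0.0008. Without untreated replicate 3 the medians were 0.10 for the steady genes and 0.07 for all genes tested. The comparisons of both doses share the untreated libraries.

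**Figure D5:**
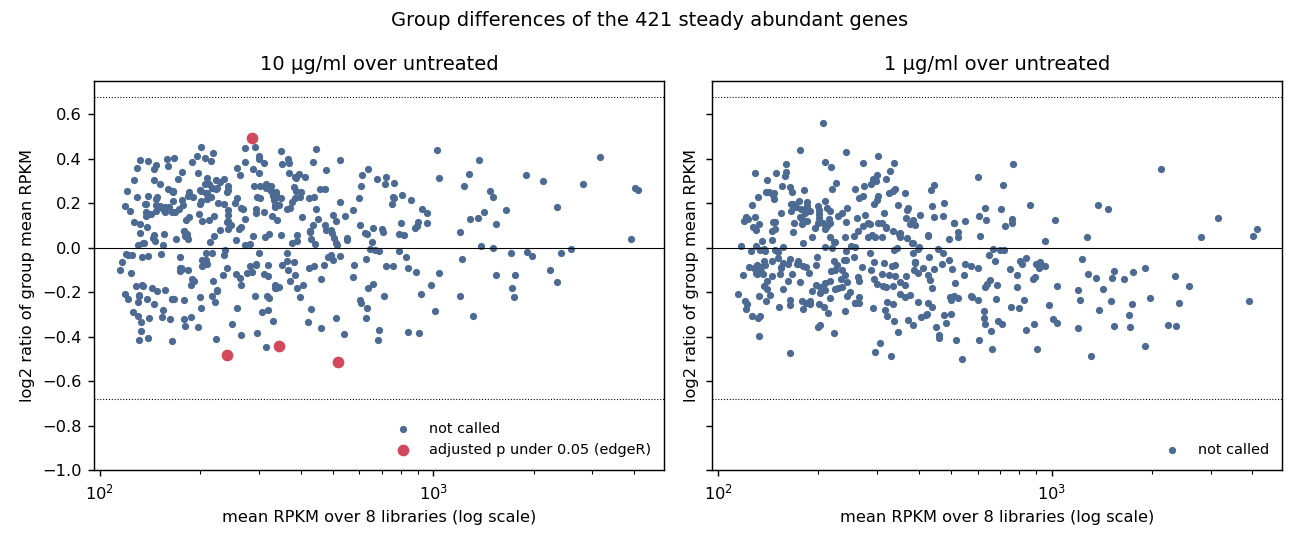
Log2 ratio of group mean RPKM (vertical axes) against mean RPKM over 8 libraries (horizontal axes, log scale) for the 421 steady genes, at 10 µg/ml over untreated (left) and 1 µg/ml over untreated (right). Dotted lines mark the limit of 0.68 that the rule sets, and red points are the 4 genes called by edgeR at 10 µg/ml.

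Between the doses, 0 of the 421 genes were called at 10 against 1 µg/ml by edgeR, as were 0 of all genes tested (0%). DESeq2 called 1 steady gene, where it called 1.7% of the genes it tested. Before adjustment, 51 steady genes had a p under 0.05 in edgeR, where 11.4% of all genes tested had. Of these, 44 (10.5% of the 421) were higher at 10 µg/ml and 7 (1.66% of the 421) lower, where 4.87% and 6.52% of all genes tested were. Among the other abundant genes the shares were 15.6% higher and 3.63% lower. The median log2 fold change was 0.12 for the steady genes, 0.19 for the other abundant genes and -0.02 for all genes. All 3 libraries at 10 µg/ml lay above all 3 at 1 µg/ml for 167 of the 421 genes (39.7%), where 12.3% of all genes tested and 43.2% of the other abundant genes did. The reverse held for 27 steady genes (6.41%), against 14.2% of all genes tested and 8.46% of the other abundant genes. These counts use TMM scaling and were not made under another. The median log2 ratio of mean RPKM at 10 over 1 µg/ml was 0.11 for the steady genes as deposited. It was 0.02 with library size only and -0.0004 with the median of abundant genes.

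The order of the group means is given beside that of the other abundant genes, with no test of the difference. With the deposited RPKM, 189 of the 421 steady genes (44.9%) had their lowest mean at 1 µg/ml, as did 38.8% of the other abundant genes. A further 108 increased from untreated to 1 to 10 µg/ml, 65 had their highest mean at 1 µg/ml and 59 decreased. The mean at 10 µg/ml was above that of untreated cells for 258 steady genes (61.3%) and 62.1% of the other abundant genes. It was above that at 1 µg/ml for 297 steady genes (70.5%) and 74.2% of the others. Another scaling multiplies all values of a library by the same factor, so these counts can move with it. With library size only, 198 steady genes were above untreated and 224 above 1 µg/ml, and with the median of abundant genes the counts were 215 and 210. Under these scalings, in the same order, 157 and 136 genes had their lowest mean at 1 µg/ml and 102 and 119 their highest. Increases numbered 67 and 74, and decreases 95 and 92. Set against a single untreated library, the deposited mean at 10 µg/ml was above untreated replicate 2 for 316 genes and above untreated replicate 3 for 188. The deposited mean at 1 µg/ml was above untreated replicate 2 for 269 genes and above untreated replicate 3 for 118.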

How the data were processed

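The authors deposited whole-number read counts and RPKM per Ensembl gene ID for 8 libraries of polyA RNA. Per the submitters' processing notes, the tools were FastQC 0.10.1, TopHat2 2.0.13, bedtools and edgeR 3.12.0 and the build galGal4; their roles are not given in the sources used here. SMART-seq v4 and Nextera XT kits and paired NextSeq reads are stated per the labels' protocols. The kit marks no strand, so overlapping genes on opposite strands cannot be told apart. For 5133 genes above 5 RPKM in every library, the deposited count over the deposited RPKM scaled with TMM-adjusted totals within 0.0170%, and gene lengths came from that ratio.

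Deposited counts of all 8 libraries were fitted with edgeR 4.0.16 (R 4.3.3), a mean per group and TMM factors, after filterByExpr (minimum count 10; 14085 genes), checked on simulated counts. Tests were 2-sided with Benjamini-Hochberg adjustment. Alternatives were DESeq2 1.42.0, other scalings, filters and limits, a replicate block, only the groups compared, and each library left out. No ID (0 of 17108) matched the 25635 reference genes, so gene lists and sequences were not used. The genes printed are the first 2 of each kind: smallest ratio, highest mean, nearest to either limit on both sides, and called with the smallest p. ENSGALG00000021683 was also nearest to the ratio limit. The members and lists were chosen with earlier results of these data known.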

Additional observations from a re-analysis of the deposited data

How the results depend on the processing

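The selection of 421 genes became 159 with a ratio limit of 1.4, 819 with a limit of 2, 677 with a floor of 50 RPKM, 251 with a floor of 200 RPKM and 1036 over the 6 libraries with DAN, by construction; it became 637 with library size only and 637 with the median of abundant genes. As many genes taken by standard deviation over mean shared 383. Leaving out 1 library gave 425 to 785. At 10 µg/ml against untreated, the 2304 genes called became 3705 with DESeq2, 1140 with a replicate block, 885 with only the groups compared, and 507 to 5008 with 1 library left out. The 4 steady genes among them became 25 with library size only, 2 with no filter on low counts, 20 with DESeq2, 0 with a replicate block and 0 with only the groups compared, and 0 to 108 with 1 library left out. At 1 µg/ml, 396 genes became 2176 with DESeq2, 2 with a replicate block, 0 with only the groups compared and 0 to 3469 with 1 library left out, and 0 steady genes became 5 with library size only, 12 with DESeq2 and 0 to 36 with 1 library left out. With library size only, 411 genes were higher and 182 lower at 1 µg/ml, against 213 and 183 with TMM. The 5 steady genes called there (2 higher, 3 lower) stood beside 593 of 14085 genes tested. At 10 µg/ml against untreated, the 2 steady genes called with no filter on low counts stood beside 2183 of 16832 genes tested. The 0 called with only the groups compared stood beside 885 of 13753. At 10 against 1 µg/ml, 0 genes became 230 with DESeq2 and 0 to 1 with 1 library left out, and 0 steady genes became 1 with DESeq2 and stayed 0 with 1 library left out. The cause of these changes was not tested, other than where fewer libraries or another limit made them. Whether the replicate numbers pair the libraries was not settled. Between the doses, same-numbered libraries had correlations of deviations of 0.13, 0.18 and 0.06, and different-numbered ones -0.14 to 0.04. Same-numbered pairs with an untreated library had -0.03 to 0.03, where the deviations of the 2 untreated libraries mirror each other. The block is given for the replicate number alone. No steady gene had under 449 counts in a library. The p-values measure only the spread between these samples. The 3 genes named as called at 10 µg/ml kept their direction under all 14 alternatives run. Their 10 µg/ml libraries all lay outside the untreated values, so leaving out 1 library could hardly turn that direction. The calls themselves were not kept throughout. The edgeR adjusted p reached 0.108 for ENSGALG00000003265, 0.115 for ENSGALG00000003053 and 0.126 for ENSGALG00000021683.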
